A study of Mus musculus with 24 samples.

Results

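The fatty acid binding proteins are small cytosolic proteins of the intracellular lipid-binding family, and the 7 genes Fabp1 to Fabp7 were followed through a survey of H3K27Ac in mouse organs. The members were taken as the rows with these 7 gene symbols, and they are 7 of the 27179 genes in the deposited table. H3K27Ac, histone H3 acetylated at lysine 27, marks active promoters and enhancers, and it was measured by chromatin immunoprecipitation and sequencing. Brain, heart, kidney and liver were each compared as FFPE tissue (fixed in 10% formalin, embedded in paraffin, its chromatin extracted at 95 °C for 20 min) and as flash Frozen tissue (cores crosslinked in 1% formaldehyde for 30 min). The sources consulted give no strain, genotype, age or sex of the mice, nor how many animals contributed, and no group is described as treated in any other way. The labels list 24 samples, of which 16 are H3K27Ac libraries and 8 are inputs. The table has 8 columns, 1 for each organ and preservation, taken here as 8 libraries. The sources do not say whether a column is 1 replicate or merged replicates, so the p-values below measure only the spread between these 8 libraries. That spread is how organ differences varied between FFPE and Frozen tissue, pooled with the spread of all genes.

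A fatty acid binding protein folds into a barrel that encloses a long-chain fatty acid or a related ligand, keeps it soluble in the cytosol and hands it to membranes, enzymes or nuclear receptors such as the PPARs. The family is known for its division between tissues. Fabp1 is the liver form, Fabp2 the intestinal form, Fabp3 the heart and muscle form, Fabp4 the form of adipocytes, macrophages and many capillary endothelial cells, Fabp5 the epidermal form, Fabp6 the ileal form, which binds bile acids, and Fabp7 the brain form, found in radial glia and astrocytes. In bulk organs such as these, fewer cells of a type and less acetylation per cell cannot be told apart.

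Values are log2 CPM, read counts relative to the library size after the authors' scaling, on a log scale. Total counts ran from 4404789 to 6164562 per library. A member had between 5 and 347 counts in a library, so that counting error was large for the lowest of them. All 7 members had counts in all 8 libraries, none was removed as unmeasured, and the organ labels fitted their markers. Snap25 (neurons), Myh6 (cardiomyocytes), Slc34a1 (proximal tubule) and Alb (hepatocytes) had their highest values in both libraries of brain, heart, kidney and liver in that order. Snap25, for example, stood at 6.26 and 5.32 log2 CPM in FFPE and Frozen brain, against 2.94 to 4.13 in the other organs, and Alb at 7.55 and 7.63 in FFPE and Frozen liver, against 2.43 to 4.50.

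**Figure D1:**
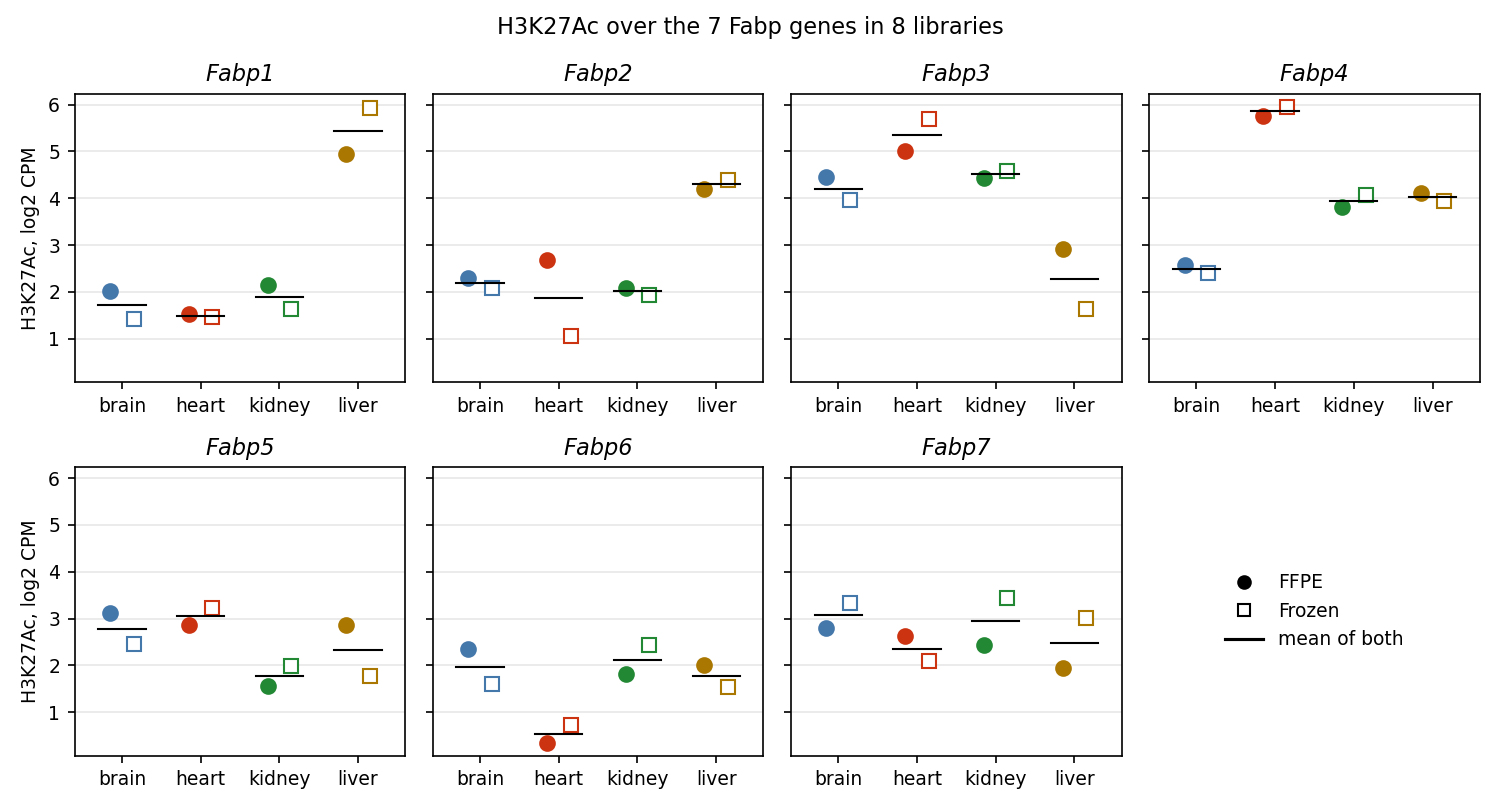
H3K27Ac of the 7 members in log2 CPM, by organ, with filled circles for FFPE, open squares for Frozen and a line at the mean of both. Fabp1 stands out in liver at 4.94 and 5.94 log2 CPM, Fabp4 in heart at 5.76 and 5.96, and Fabp3 is lowest in liver at 2.92 and 1.63, while Fabp5, Fabp6 and Fabp7 have no organ with both libraries clear of all the rest except low Fabp6 in heart.

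Liver was set apart from the mean of the other 3 organs by 3 of the 7 members. Fabp1 and Fabp2 were higher there and Fabp3 was lower (limma, Benjamini-Hochberg adjusted p under 0.05, over 26944 genes). Over all genes tested 20.9% passed in the liver comparison, 11.2% higher and 9.73% lower. All 3 calls held under each of the 13 alternative settings, among them the removal of any 1 library.

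Fabp1, the liver fatty acid binding protein, is abundant in hepatocytes, where it carries fatty acids to oxidation and to lipoprotein assembly. It had 4.94 log2 CPM in FFPE liver (140 counts) and 5.94 in Frozen liver (347 counts). The FFPE and Frozen libraries had 2.02 and 1.42 in brain, then 1.54 and 1.46 in heart, then 2.16 and 1.63 in kidney, with 12 to 23 counts each. Both liver libraries lay above all 6 others, which stayed within a narrow band. The liver difference was 3.74 ± 0.40 on the log2 scale (SE), or 13.3-fold higher, with an adjusted p of 9.68e-09 (limma). Fabp1 was also lower in heart by the same test, with a log2 difference of -1.52 ± 0.40 (adjusted p = 0.00733), and in brain, with -1.22 ± 0.40 (adjusted p = 0.0262). Those comparisons hold the high liver values on their other side, and Fabp1 did not pass the test between brain, heart and kidney in any pair, the adjusted p being 0.688 or above. The heart call was lost under quantile normalization (adjusted p = 0.0557) and without the Frozen heart library (0.133), and the brain call without Frozen brain (0.468), FFPE kidney (0.0806) or Frozen liver (0.121).

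Fabp2, the intestinal fatty acid binding protein, is known from the enterocytes of the small intestine, where it takes up dietary fatty acids. Its values were 4.19 log2 CPM in FFPE liver (83 counts) and 4.40 in Frozen liver (119 counts). In FFPE and Frozen tissue the other organs had 2.29 and 2.09 (brain), 2.68 and 1.06 (heart) and 2.10 and 1.93 (kidney). Liver was again above all 6 other libraries, by 2.27 ± 0.41 (SE) on the log2 scale or 4.83-fold, with an adjusted p of 7.80e-05 (limma). Markers of enterocytes did not as a list stand out in liver. Their summed level was 245.5 and 246.6 CPM in FFPE and Frozen liver, against 166 to 244.5 CPM in the other organs. In the liver comparison 2 of these 8 markers were higher and 1 was lower, against 11.2% and 9.73% of all genes. The higher ones were the apolipoprotein gene Apoa4, by 3.19 ± 0.34, and the ileal bile acid transporter gene Slc10a2, by 1.87 ± 0.29. Apoa4 is also expressed by mouse hepatocytes. None of the 8 was at 0 counts in any library. The part of intestinal cells in the Fabp2 level was not tested.

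The RefSeq promoters (GRCm38.p6, the assembly of mm10) of the members that differed in liver are shown as the 250 bases before the annotated start, so that they can be set beside the acetylation. Promoter entries were matched for 5 of the 7 members, and Fabp4 and Fabp5 are named only. Fabp1 lies at chr6:71199629-71199878, Fabp2 at chr3:122894822-122895071 and Fabp3 at chr4:130308488-130308737, all on the plus strand, and capitals mark matches to the motifs searched.
Fabp1: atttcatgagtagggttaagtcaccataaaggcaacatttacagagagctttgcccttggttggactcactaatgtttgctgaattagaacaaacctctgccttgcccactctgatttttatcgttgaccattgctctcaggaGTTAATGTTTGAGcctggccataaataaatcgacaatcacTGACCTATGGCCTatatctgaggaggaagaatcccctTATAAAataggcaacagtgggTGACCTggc
Fabp2: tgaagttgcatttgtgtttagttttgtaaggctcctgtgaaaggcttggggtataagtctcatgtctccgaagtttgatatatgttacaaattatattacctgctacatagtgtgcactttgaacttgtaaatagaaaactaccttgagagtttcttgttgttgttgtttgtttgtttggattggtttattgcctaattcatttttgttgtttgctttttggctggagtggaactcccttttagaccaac
Fabp3: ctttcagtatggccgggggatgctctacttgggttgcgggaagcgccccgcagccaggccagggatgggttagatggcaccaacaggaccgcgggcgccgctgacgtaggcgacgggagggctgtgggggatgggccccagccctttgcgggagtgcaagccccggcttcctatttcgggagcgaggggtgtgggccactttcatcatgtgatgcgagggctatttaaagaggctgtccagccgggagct

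The 4 motifs were searched on both strands. They were the TATA box TATAAA, the nuclear receptor motif AGGTCA, that motif repeated after 1 base with up to 2 mismatches (the form PPAR with RXR binds), and the HNF1 palindrome, which is GTTAAT followed after 1 base by its reverse complement, with up to 3 mismatches. HNF1 factors regulate liver, kidney and gut genes. Among 32841 RefSeq promoters of this length 12.4% held the first, 14.0% the second, 3.24% the third and 7.58% the fourth. The Fabp1 promoter held all 4. The TATA box stood 30 to 25 bases before the start, and AGGTCA stood on the minus strand at 67 to 62 and at 9 to 4 bases before it. The repeat, on the minus strand with 1 mismatch, covered 67 to 55 bases before the start and overlaps the first of those AGGTCA matches. The HNF1 motif, with 3 mismatches, covered 107 to 95. The Fabp2 and Fabp3 windows held none of the 4 motifs. Of the other members with an entry, Fabp6 held the TATA box on the minus strand, and Fabp7 held AGGTCA on the minus strand and the HNF1 motif with 3 mismatches. These matches are letters in a window and say nothing of binding.

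Heart differed from the other organs in 4 of the 7 members, with Fabp3 and Fabp4 higher and Fabp1 and Fabp6 lower (limma, adjusted p under 0.05). Of all genes tested 16.7% passed in the heart comparison, 9.42% higher and 7.31% lower. Fabp4 in heart kept its call under all 13 alternative settings. The other 3 did not, as given with each. With equal median and spread in all libraries, as with quantile normalization, the count was 2.

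Fabp4, the adipocyte fatty acid binding protein, also acts in macrophages and in capillary endothelium, where it takes part in moving fatty acids across the vessel wall. It had 5.76 log2 CPM in FFPE heart (233 counts) and 5.96 in Frozen heart (283 counts). FFPE and Frozen brain had 2.57 and 2.40, kidney 3.82 and 4.08, and liver 4.12 and 3.93. Heart was above all other libraries and brain below them, with kidney and liver close together between. The heart difference was 2.37 ± 0.27 (SE) on the log2 scale, 5.18-fold higher, with an adjusted p of 1.19e-07 (limma). The brain difference was -2.13 ± 0.27, or 4.37-fold lower (adjusted p = 5.40e-07).

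Markers of endothelium moved in the direction of Fabp4 in heart and brain, but not in liver. Of the 10 endothelial markers, 9 were higher and 0 lower in heart, and 0 were higher and 8 lower in brain, against 9.42% of all genes higher in heart and 13.6% lower in brain. Their median log2 difference was 1.30 in heart and -0.92 in brain, beside -0.04 and 0.04 over all genes. In liver 0 were higher and 3 lower, with a median of -0.41, against 9.73% of all genes lower and a median of -0.06. Fabp4 in liver did not pass, at -0.07 ± 0.27 (limma, adjusted p = 0.901). In kidney 0 were higher and 0 lower. The summed level of the list was 1090 and 1133 CPM in FFPE and Frozen heart. It was 313 and 314 CPM in FFPE and Frozen brain, and 409 to 549 CPM in kidney and liver. The largest heart differences in the list were those of Kdr, the VEGF receptor gene, at 1.93 ± 0.21, and of the transcription factor gene Sox17, at 1.77 ± 0.21.

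The adipocyte and macrophage lists did not follow Fabp4 in the same way. The 10 adipocyte markers summed to 243.5 and 246.1 CPM in FFPE and Frozen heart, below the 348 to 654 CPM of kidney and liver and above the 173 to 175 CPM of brain. In heart 2 of them were higher, Lipe (hormone-sensitive lipase) and Pparg (the adipocyte regulator PPAR gamma), and 2 were lower, Pck1 and Cidec. Over all genes 9.42% were higher and 7.31% lower in heart. The liver and kidney also use Pck1, which makes up part of those sums. The 8 macrophage markers summed to 232 and 243 CPM in heart, 240.1 and 247 CPM in kidney, 221 and 230.2 CPM in liver and 199.6 and 201 CPM in brain, with 2 of 8 higher in heart, Cd14 and Cd68. No marker of the 3 lists was at 0 counts in any library. The part of the amount of these cells in the Fabp4 difference was not tested.

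Fabp3, the heart and muscle fatty acid binding protein, is known to carry fatty acids to the mitochondria of oxidative muscle. It had 5.02 log2 CPM in FFPE heart (139 counts) and 5.70 in Frozen heart (237 counts). FFPE and Frozen brain had 4.46 and 3.95, kidney 4.44 and 4.58, and liver 2.92 and 1.63. Both heart libraries were above the rest and both liver libraries below. The heart difference was 1.70 ± 0.31 (SE) on the log2 scale, 3.24-fold higher, with an adjusted p of 0.000126 (limma), and without the Frozen heart library it was 1.08 with an adjusted p of 0.191, while without the variance trend the adjusted p was 0.0555. The liver difference was larger in size, at -2.42 ± 0.31, or 5.36-fold lower (adjusted p = 1.97e-07). Between heart and kidney the difference of 0.85 ± 0.38 did not pass the test (adjusted p = 0.167), so heart was not separated from the organ next to it. All 8 cardiomyocyte markers were higher in heart and all 8 lower in liver, with a summed level of 1004 and 1039 CPM in FFPE and Frozen heart and 173 and 142 CPM in FFPE and Frozen liver. Over all genes 9.42% were higher in heart and 9.73% lower in liver. The part of cardiomyocytes in the Fabp3 difference was not tested.

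**Figure D2:**
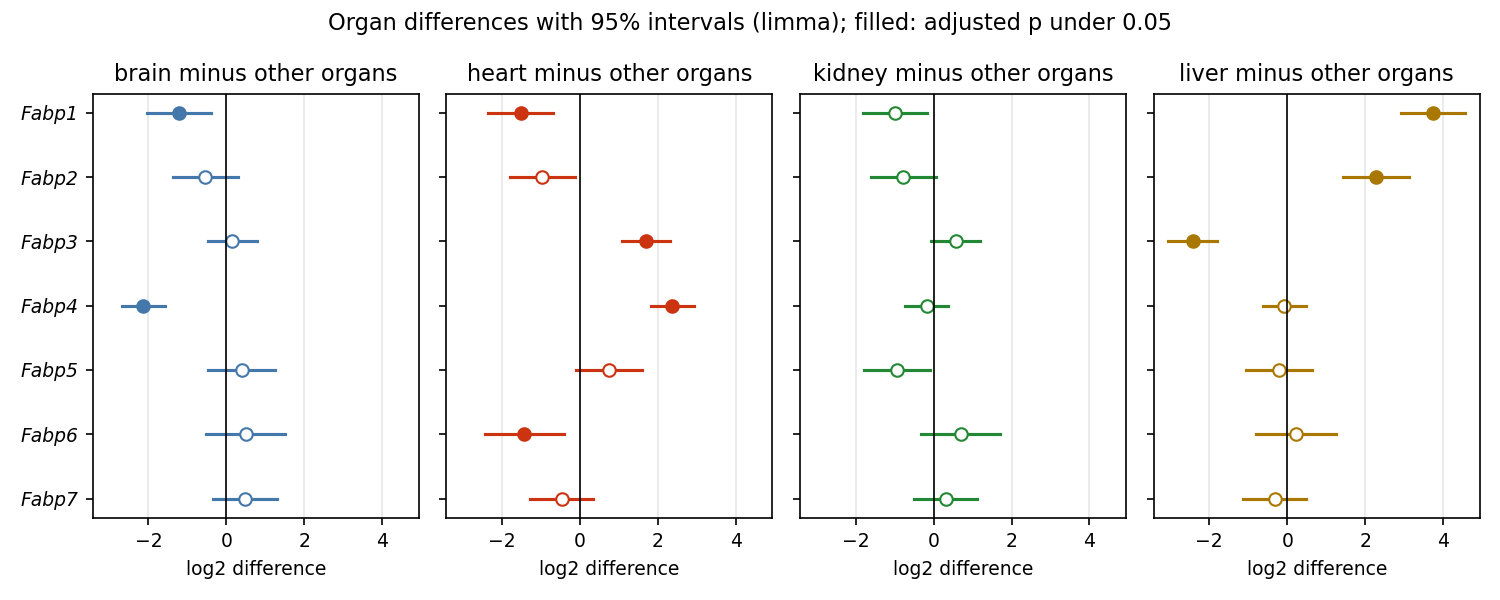
Log2 difference of each member between an organ and the mean of the other 3, with its 95% interval from limma, filled where the adjusted p is under 0.05. Fabp1 and Fabp2 in liver and Fabp3 and Fabp4 in heart lie to the right of 0, Fabp4 in brain and Fabp3 in liver to the left, and no kidney point is filled.

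Brain differed in 2 of the 7 members, both lower, the Fabp4 and Fabp1 differences given above, while 22.4% of all genes passed in the brain comparison, 8.73% higher and 13.6% lower. In kidney 0 of the 7 members passed by limma at an adjusted p under 0.05, where 5.22% of all genes passed. At an unadjusted p under 0.05, 2 members did so in kidney, Fabp1 and Fabp5, both lower than the mean of the other organs. The lowest adjusted p was 0.188. For Fabp1 that mean holds the high liver values, and its kidney mean was above those of brain and heart.

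Fabp5, the epidermal fatty acid binding protein, is made by many cell types, keratinocytes above all. FFPE and Frozen brain had 3.11 and 2.45 log2 CPM, heart 2.87 and 3.22, kidney 1.56 and 1.99, and liver 2.87 and 1.78. No organ lay clear of all the others. Its widest difference was in kidney, -0.94 ± 0.42 on the log2 scale with an adjusted p of 0.251 (limma). Keratinocyte markers, 6 genes, summed to 163 to 236 CPM in all libraries.

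Fabp6, the ileal bile acid binding protein (also called gastrotropin), is known from the end of the small intestine. It had 0.35 and 0.72 log2 CPM in FFPE and Frozen heart, from 5 and 7 counts, against 1.54 to 2.43 in the other organs, from 16 to 30 counts. Both heart libraries were below all others. The heart difference was -1.42 ± 0.50 (SE) on the log2 scale with an adjusted p of 0.0477 (limma), just under the threshold. It was lost under 8 settings, among them quantile normalization (0.125) and the removal of FFPE brain (0.120), FFPE heart (0.276), Frozen heart (0.197), Frozen kidney (0.150) or FFPE liver (0.0753), and a filter on a mean log2 value of at least 2 removed the gene. Fabp6 in heart passed the test against none of brain, kidney and liver taken alone.

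Fabp7, the brain fatty acid binding protein, is known from radial glia, the stem cells of the developing brain, and from astrocytes. FFPE and Frozen brain had 2.80 and 3.34 log2 CPM, heart had 2.62 and 2.10, kidney 2.44 and 3.44, and liver 1.94 and 3.01. Brain had the highest mean but overlapped kidney and liver, and the highest single value was that of Frozen kidney. The brain difference was 0.48 ± 0.40, with a 95% interval from -0.33 to 1.29 and an adjusted p of 0.417 (limma). Of the 9 astrocyte and radial glia markers 6 were higher and 1 was lower in brain, against 8.73% and 13.6% of all genes. The higher ones were led by Sox2 at 1.41 ± 0.29, Aldoc at 1.08 ± 0.26 and Slc1a2 at 1.05 ± 0.22. The Aldoc and Slc1a2 calls were lost without Frozen brain, and that of Slc1a2 also without the variance trend. The list summed to 431 and 480 CPM in FFPE and Frozen brain against 295 to 399 CPM elsewhere. All 8 neuron markers were higher in brain.

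In pairs of organs, 15 of the 42 combinations of member and pair passed the test (limma, adjusted over all genes in each pair). There were 2 of 7 between brain and heart, 1 between brain and kidney, 4 between brain and liver, 1 between heart and kidney, 4 between heart and liver, and 3 between kidney and liver. Over all genes those pairs gave 21.1%, 10.9%, 26.3%, 9.71%, 16.7% and 11.8%, in the same order. For Fabp1 the order of means was liver, kidney, brain, heart, and only steps to or from liver passed. For Fabp2 it was liver, brain, kidney, heart, and again the steps that passed all had liver on 1 side. For Fabp3 it was heart, kidney, brain, liver, with neither heart and kidney nor kidney and brain separated, although brain and heart were (-1.16 ± 0.38, adjusted p = 0.0256). For Fabp4 it was heart, liver, kidney, brain, and the liver and kidney neighbours were the only unseparated pair. Fabp5, Fabp6 and Fabp7 had 0 of 6 pairs each.

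Levels of different members were set side by side per kilobase of gene span, on the untested assumption that reads were counted over the whole span. On that scale Fabp4 in heart was the highest, with a mean over FFPE and Frozen of 13.6 CPM per kb, then Fabp1 in liver at 8.91, Fabp3 in heart at 6.26 and Fabp2 in liver at 4.42 CPM per kb. The lowest was Fabp6 in heart at 0.24 CPM per kb. Against the genes with a span of 3 to 7 kb, all members being in that range, Fabp4 stood above 14.8% to 87.4% of them depending on the library, Fabp1 above 2.87% to 78.6% and Fabp3 above 6.57% to 68.5%. Fabp6 stood above 1.39% to 11.5% of them and so was near the bottom in all 8 libraries. Fabp7 ran between 14.7% and 44.6%, and Fabp5 between 7.63% and 41.5%.

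Preservation was compared over the 4 organs, with organ as a term in the fit. None of the 7 members passed the test between FFPE and Frozen tissue (limma, adjusted p under 0.05), where 3.91% of all genes did. At an unadjusted p under 0.05 the count was also 0. The widest difference was that of Fabp7, at -0.52 ± 0.35 on the log2 scale, with a 95% interval from -1.23 to 0.18 and an adjusted p of 0.489.

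Within an organ there is 1 library of each kind and hence no test, and the ratio of FFPE to Frozen is given with an exact interval that covers counting error only. Of 28 ratios, 20 had an interval that included 1, 4 lay above and 4 below, with the authors' scaling. The share of all genes with an interval clear of 1 was not computed, so the counts cannot be called particular to the members. Fabp3 had the most varied ratios, 1.42 in brain (1.06 to 1.90), 0.621 in heart (0.50 to 0.769), 0.906 in kidney (0.700 to 1.17) and 2.48 in liver (1.35 to 4.73). In Fabp1 the liver ratio was 0.50 (0.408 to 0.610). For Fabp1 and Fabp3, the organ with the highest level thus had a ratio below 1. Fabp7 had 0.492 in kidney (0.303 to 0.782) and 0.468 in liver (0.251 to 0.834). Fabp2 had 3.18 in heart (1.45 to 7.68), from 27 FFPE and 9 Frozen counts, and Fabp5 had 2.15 in liver (1.19 to 4.00). Scaled by total counts instead, the Fabp4 ratio in heart moved to 0.689 (0.577 to 0.823), against 0.872 (0.730 to 1.04) with the authors' scaling. By total counts the interval of Fabp3 in brain included 1 (0.899 to 1.62). Those of Fabp3 in kidney (0.594 to 0.995), Fabp4 in kidney (0.516 to 0.972) and Fabp7 in brain (0.367 to 0.905) then lay below 1.

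**Figure D3:**
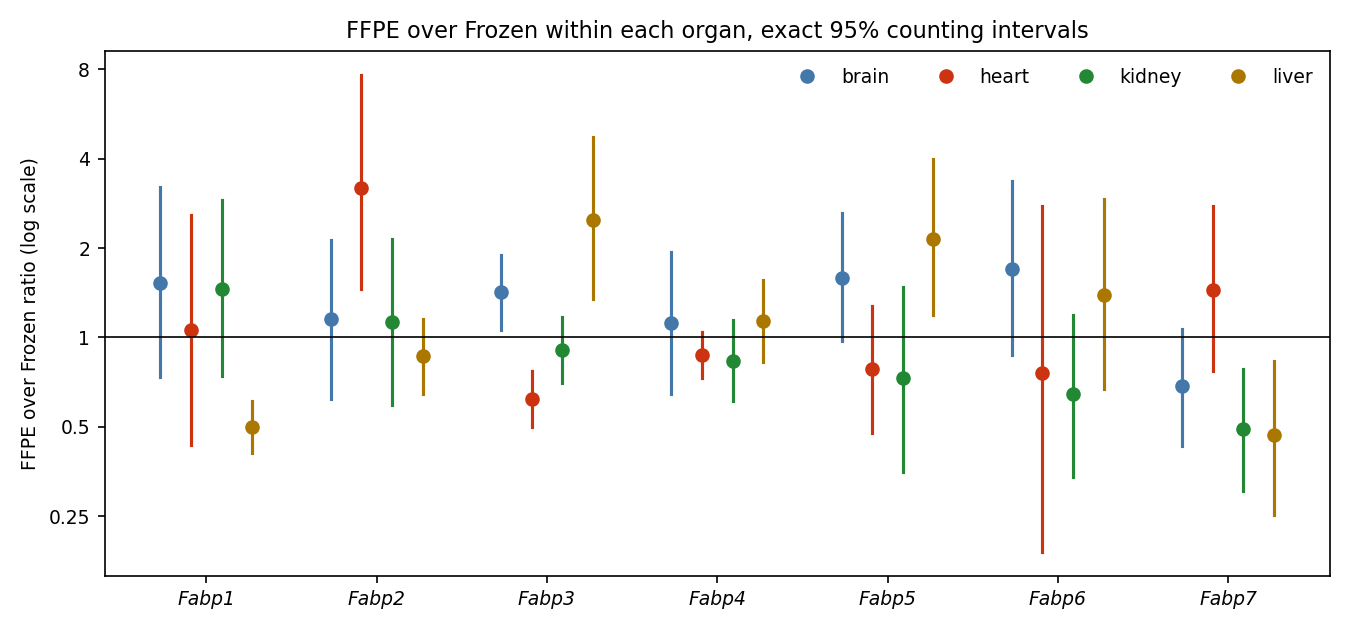
Ratio of FFPE to Frozen for each member in each organ on a log axis, with exact 95% intervals of counting error. With the authors' scaling, 20 of the 28 intervals include 1, and Fabp3 lies above 1 in liver at 2.48 and below it in heart at 0.621.

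Organ differences were also taken within FFPE and within Frozen tissue. The 9 differences that passed the test above had the same sign in both kinds. They were picked by a test on these same values, which largely fixes that agreement, so it adds nothing to the calls. In 8 of the 9 the FFPE value was the smaller in size. The share of all called genes with a smaller FFPE value was not computed, and the 9 differences share libraries. Over all genes, the SD of log2 CPM was 2.09 in FFPE and 2.40 in Frozen heart, and 2.05 and 2.39 in liver. It was 1.94 and 1.96 in brain and 2.03 and 2.05 in kidney. Fabp1 in liver was 3.04 above the other organs in FFPE and 4.44 in Frozen tissue, and Fabp2 in liver 1.84 and 2.71. Fabp3 in liver had -1.72 in FFPE and -3.12 in Frozen tissue, and in heart 1.08 and 2.31. Fabp1 in heart came closest to equal, and Fabp4 in heart had 2.26 in FFPE and 2.49 in Frozen tissue. Fabp6 in heart was the exception, with -1.71 and -1.14. These values have no test, since each rests on 1 library per organ.

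The genome places the family unevenly. Fabp4 (chr3:10204342-10208616) and Fabp5 (chr3:10012585-10016610) lie in a cluster of 5 lipid-binding genes that spans 288.931 kb, with Pmp2 and Fabp9 between them and Fabp12 beyond Fabp4. Pmp2 encodes a myelin lipid-binding protein and Fabp9 a testis form. Fabp2 is on the same chromosome 112.594 Mb from the cluster, at chr3:122895072-122899506. Fabp1 is at chr6:71199879-71205034, Fabp3 at chr4:130308738-130315463, Fabp6 at chr11:43596040-43601562 and Fabp7 at chr10:57784923-57788450.

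Fabp4 and Fabp12 were highest in different organs. Fabp4 was highest in heart, as above, whereas Fabp12, whose start and end enclose 57.307 kb, had 5.89 and 6.41 log2 CPM in FFPE and Frozen liver against 3.89 to 5.24 in the other organs. Its liver difference was 1.85 ± 0.26 (adjusted p = 1.77e-06, limma). The next gene, Impa1, an inositol monophosphatase gene 10.44 kb away, was also higher in liver, by 1.57 ± 0.22 (adjusted p = 9.24e-07), and lower in heart, by -1.05 ± 0.22. In brain Fabp12 was lower than the mean of the other organs by -1.12 ± 0.26 (adjusted p = 0.00187, lost without the variance trend). Impa1 was lower by -0.60 ± 0.22 (adjusted p = 0.0422, held under 4 of the 13 settings). Both comparisons hold the high liver values on their other side. Taken in pairs, Fabp12 in brain differed from liver (limma, adjusted p = 2.13e-06) but not from heart (0.105) or kidney (0.552). Fabp4 in brain passed against each of those organs. Neither Pmp2 nor Fabp9 passed the test in any organ. A transcribed pseudogene between Fabp5 and Pmp2, Gm9833, was higher in heart by 1.23 ± 0.25 (adjusted p = 0.000505) and lower in brain by -0.85 ± 0.25 (adjusted p = 0.0117), which are the directions of Fabp4. The liver calls of Fabp12 and Impa1 and the heart call of Gm9833 held under all 13 settings, while Impa1 in heart was lost without Frozen heart and Gm9833 in brain without either brain library.

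**Figure D4:**
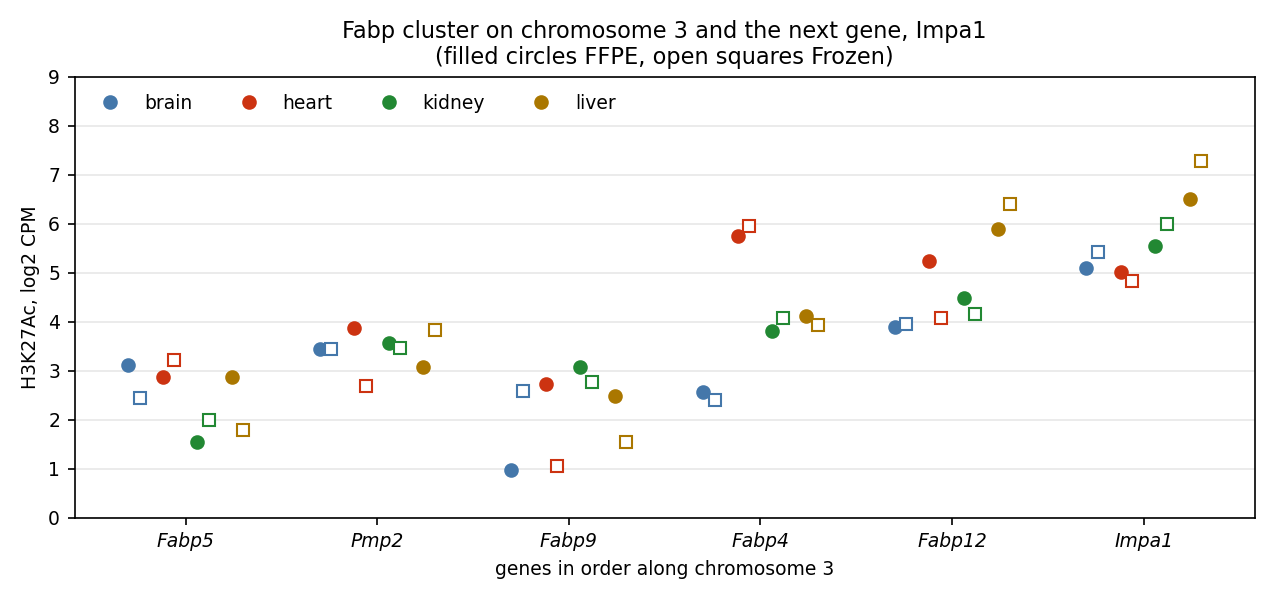
H3K27Ac in log2 CPM of the chromosome 3 cluster and the gene after it, Impa1, in order along the chromosome, with filled circles for FFPE, open squares for Frozen and a colour for each organ. Fabp4 is highest in heart at 5.76 and 5.96, and Fabp12 in liver at 5.89 and 6.41.

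Other neighbours are given because acetylation can spread over several genes and the counted part of each gene is not stated. Smyd1, a muscle methyltransferase gene 8.905 kb from Fabp1, had a liver difference of 1.11 ± 0.24 (adjusted p = 0.000658), and Thnsl2, 55.498 kb to the other side, one of 0.80 ± 0.24 (adjusted p = 0.0128). Both are smaller than that of Fabp1. In brain Smyd1 was lower by -1.06 ± 0.24 (adjusted p = 0.00116) and Thnsl2 by -0.94 ± 0.24 (adjusted p = 0.00372). Fabp1 itself did not pass between brain and heart or kidney, as given above. Thnsl2 had close means in kidney (5.33 log2 CPM) and liver (5.36). Fabp2 lies wholly inside the long non-coding RNA gene 4933405D12Rik, and neither it nor the neighbours Pde5a and 1810037I17Rik passed the test in any organ. Fabp3 overlaps Zcchc17 by 81 bases, and Zcchc17 was lower in liver by -0.90 ± 0.24 (adjusted p = 0.00491). Whether reads in an overlap were given to 1 gene, to both or to neither is not stated either. Serinc2, 29.519 kb from Fabp3, was higher in brain by 0.85 ± 0.30 and lower in heart by -0.93 ± 0.30. Ccnjl, 9.04 kb from Fabp6, was higher in brain by 0.70 ± 0.23 and lower in liver by -0.65 ± 0.23, and Pkib, 43.81 kb from Fabp7, was higher in brain by 0.87 ± 0.23. The neighbours Snrnp40, Pag1, Pwwp2a and Smpdl3a passed in no organ. The calls of Smyd1, Thnsl2, Zcchc17, Serinc2, Ccnjl and Pkib were each lost without at least 1 library of the organ named. RefSeq also lists the copies Fabp3-ps1 and Fabp5l2, and whether reads from such copies were counted to Fabp3 or Fabp5 was not examined.

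The genes most like each called member over the 8 libraries, among 19241 genes with a mean of at least 3 log2 CPM, were found by Pearson's r, as a description. Libraries of the same organ share most of each pattern. For Fabp1 they were Slc17a2 (r = 0.9995), AI182371 (0.997) and Apoc4 (0.997), and for Fabp2 they were Saa4 (0.991), Rnf125 (0.988) and Cyp2d10 (0.987). Each of these was higher in liver, which follows from how they were picked. For Fabp3 they were Ankrd63 (0.984), Adam15 (0.983) and Usp54 (0.980), and for Fabp4 they were Gm12676 (0.992), Cav1 (0.986), the caveolin gene, and Hlx (0.985). The Fabp4 trio was higher in heart, Hlx for example by 1.97 ± 0.21, which again follows from the picking. Of the Fabp3 genes, Adam15 and Usp54 passed in heart and Ankrd63 did not (limma, adjusted p = 0.0548). All of the Fabp3 genes were lower in liver. For Fabp6, with its few counts, they were Akr1c18 (0.983), Slc36a1 (0.954) and Abcb5 (0.952).

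Some genes that work beside the fatty acid binding proteins also differed between organs. Of 15 genes of fatty acid uptake and activation, 6 were higher and 2 lower in liver, 3 higher and 2 lower in heart, 1 higher and 8 lower in brain, and 1 higher and 2 lower in kidney. Over all genes 11.2% were higher and 9.73% lower in liver, 9.42% and 7.31% in heart, and 8.73% and 13.6% in brain. In kidney 5.22% passed in either direction. The median log2 difference was 0.03 in liver, -0.11 in heart, -0.88 in brain and -0.04 in kidney, beside -0.06, -0.04, 0.04 and -0.02 over all genes. In heart the higher genes were those of capillary fatty acid delivery: Gpihbp1, which anchors lipoprotein lipase, by 2.51 ± 0.25, Cd36, the fatty acid translocase, by 2.34 ± 0.22, and Lpl, lipoprotein lipase, by 1.98 ± 0.22. In liver they were led by the bile acid and very long-chain acyl-CoA synthetase genes Slc27a5, by 3.31 ± 0.26, and Slc27a2, by 2.47 ± 0.23. In brain Gpihbp1 was lower by -2.46 ± 0.25 and Acsl6, a brain acyl-CoA synthetase gene, was the 1 higher gene, by 1.52 ± 0.25. In kidney Slc27a2 was higher by 1.21 ± 0.23, a call that was lost without either kidney library and without the variance trend. The others named here held under all 13 settings.

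Of 8 genes for PPAR and RXR receptors and their coactivators, 3 were higher and 0 lower in liver, 2 and 0 in heart, 0 and 2 in brain, and 0 and 1 in kidney. Over all genes 11.2% were higher in liver, 9.42% higher in heart and 13.6% lower in brain, and 5.22% passed in kidney. Counts this small cannot be called particular to the list. Its median was 0.36 in liver, 0.39 in heart, -0.53 in brain and -0.22 in kidney, beside -0.06, -0.04, 0.04 and -0.02 over all genes. Ppara, the receptor that drives fatty acid oxidation genes, was higher in liver by 1.23 ± 0.21 and in heart by 0.59 ± 0.21 (adjusted p = 0.0462, a call that held under 4 of the 13 settings), and lower in brain by -1.66 ± 0.21. Rxra, its partner, was higher in liver by 1.41 ± 0.23. Pparg was higher in heart by 1.03 ± 0.23, a call that was lost without Frozen heart and without the variance trend. It was lower in kidney by -0.80 ± 0.23, a call that held under 8 of the 13 settings and was lost without either kidney library. In the lipid droplet and lipolysis list of 15, 5 were higher and 0 lower in liver, 6 and 2 in heart, 0 and 6 in brain, and 0 and 2 in kidney. The shares over all genes are those just given, with 7.31% lower in heart. The droplet list had a median of 0.42 in liver, 0.58 in heart, -0.50 in brain and -0.37 in kidney. Cidec, a droplet fusion gene, was higher in liver by 2.54 ± 0.29. Plin4, a droplet coat gene, was higher in heart by 1.47 ± 0.21. It was lower in kidney by -1.45 ± 0.21, a call that was lost without the variance trend.

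**Figure D5:**
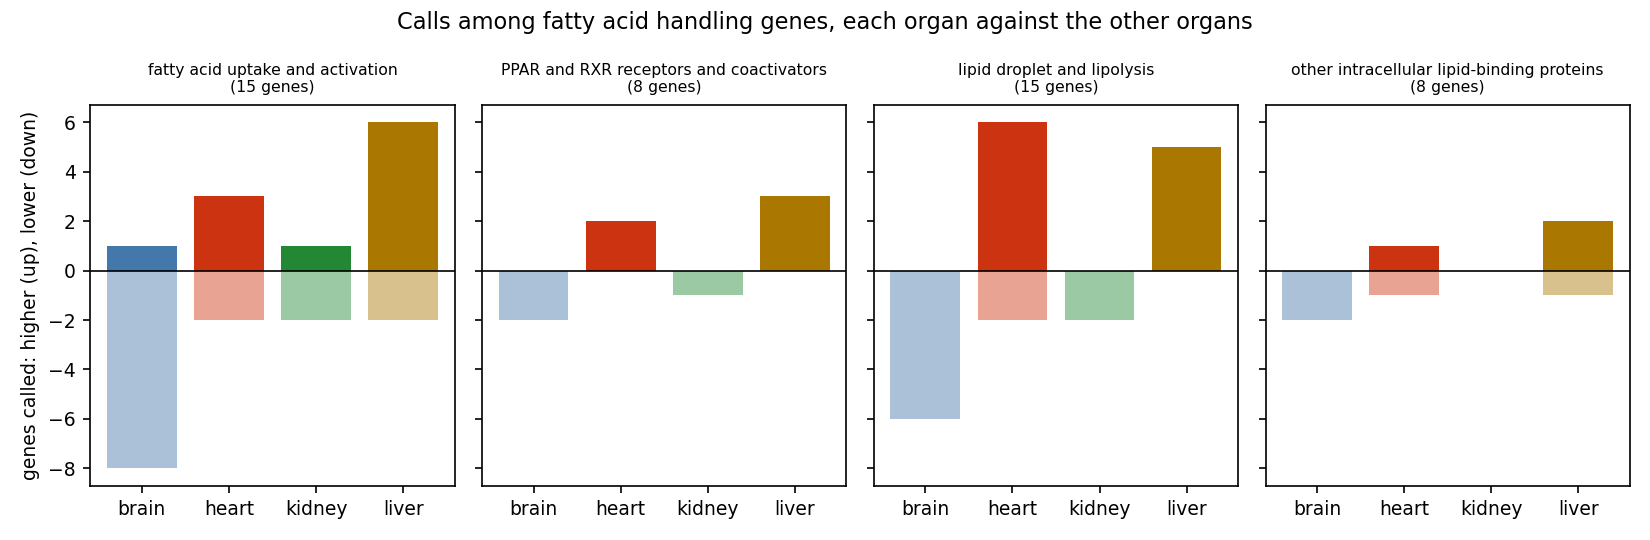
Number of genes of each list that were higher (up, solid) or lower (down, pale) in an organ than in the other 3, at an adjusted p under 0.05 (limma). Of the 15 fatty acid uptake and activation genes 6 are higher in liver and 8 are lower in brain, against 11.2% and 13.6% of all genes.

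Of the 8 measured relatives in the same superfamily, 2 were higher and 1 lower in liver, 1 and 1 in heart, 0 and 2 in brain, and 0 and 0 in kidney. Over all genes 20.9% passed in liver, 16.7% in heart, 22.4% in brain and 5.22% in kidney. With 8 genes, the heart and brain counts are near those shares. Rbp7, a retinol-binding protein gene known from capillary endothelium, was higher in heart by 2.12 ± 0.45 and lower in liver by -1.99 ± 0.45. Each call was lost without the Frozen library of that organ and without the variance trend. Between FFPE and Frozen tissue the same 4 lists gave Dbi (acyl-CoA binding protein), lower by -0.69 ± 0.19, and Rxrb, lower by -0.77 ± 0.19, and no other gene, with calls that held under 4 and 6 of the 13 settings. Over all genes 3.91% passed that comparison, so these calls cannot be called particular to the lists. As lists of cell markers, all 8 hepatocyte markers were higher in liver, with summed levels of 1040 and 1589 CPM in FFPE and Frozen liver against 90.4 to 140.1 CPM elsewhere, and 6 of 8 nephron markers were higher in kidney. Over all genes 11.2% were higher in liver, and 5.22% passed in kidney in either direction.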

How the data were processed

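The deposited table holds log2 values per gene for 8 libraries of H3K27Ac chromatin, made by the authors with Bowtie2, featureCounts and limma on mm10, per the submitters' processing notes. For versions, the counted part of each gene and multi-mapping reads, nothing is stated in the sources used here. In all columns 100% of the log2 values gave whole counts within 0.001, with an offset of 0.5, so they are log2 CPM after the authors' scaling (factors 0.749 to 1.22). Of 27179 genes, 235 at 0 counts throughout were left out. The labels name more than 1 ChIP run and library kit, which could not be matched to columns.

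limma 3.58.1 (R 4.3.3) was run on the deposited log2 values with organ and preservation as terms and a prior variance that followed the mean. There were 3 residual degrees of freedom and a median of 30.6 prior ones, so most of each variance came from the trend over all genes. Tests were two-sided, with Benjamini-Hochberg adjustment over 26944 genes and a threshold of 0.05. The scripts were tested on simulated data. Ratios have exact Clopper-Pearson intervals (scipy 1.17.1), which cover counting error only. Positions come from RefSeq GRCm38, to which 25275 identifiers matched. Members and gene lists were chosen with earlier results of these data known. Named list genes are among the 4 largest differences past the threshold. The per-kb scale was added after the values were seen. Alternatives were quantile normalization, equal median and spread, no variance trend, a mean log2 of at least 2, an offset of 2 counts, each library left out, and scaling by total counts. Input libraries were not analysed here. The result of 1 listed gene is not reported here.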

Additional observations from a re-analysis of the deposited data

Results flagged for a closer look

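The ratio of FFPE to Frozen of Fabp3 went opposite ways in different organs. With the authors' scaling it was 1.42 in brain and 2.48 in liver, both with counting intervals above 1. In heart it was 0.621, with an interval below 1. Scaled by total counts, the brain ratio was 1.20 and its interval included 1 (0.899 to 1.62). Liver stayed above 1 at 2.80 (1.52 to 5.34) and heart below it at 0.491 (0.395 to 0.608). Kidney then lay below 1 too, at 0.769 (0.594 to 0.995). Each ratio rests on 1 library of each kind, and the difference between organs was not tested.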

How the results depend on the processing

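No paired analysis was possible because the columns carry no replicate number. The calls of Fabp4 in brain and heart and of Fabp1, Fabp2 and Fabp3 in liver held under all 13 settings. The number of members called in heart, 4 as reported, was 2 with quantile normalization, 2 with equal median and spread and 1 without the variance trend, and 1 to 4 with a library left out. In brain, 2 as reported, it was 1 without the trend and 1 to 2 with a library left out. The lone brain or heart library left by such a fit was assumed to vary like the other groups. Fabp2 in heart was called without FFPE heart, at -1.75 (adjusted p = 0.0259). The cause was not tested.

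Signs turned only in differences that passed no test. With quantile normalization and with equal median and spread, Fabp4 in liver became 0.15 and 0.16, Fabp5 in liver 0.0268 and 0.19, and Fabp6 between FFPE and Frozen -0.25 and -0.28. Fabp4 between FFPE and Frozen became 0.0165 with equal median and spread. With a library left out, the ranges were -0.0762 to 0.39 for Fabp3 in brain, -1.17 to 0.23 for Fabp7 in heart and -0.0172 to 0.63 for Fabp7 in kidney. In liver they were -0.21 to 0.0699 for Fabp4, -0.77 to 0.36 for Fabp5, -0.0406 to 0.51 for Fabp6 and -0.68 to 0.0457 for Fabp7. Between FFPE and Frozen they were -0.13 to 0.40 for Fabp1, -0.11 to 0.55 for Fabp3, -0.0960 to 0.0522 for Fabp4, -0.0413 to 0.47 for Fabp5 and -0.17 to 0.29 for Fabp6. Without the variance trend the lists also gave fewer calls: 2 higher and 0 lower uptake and activation genes in liver and 1 and 4 in brain, 2 and 0 lipid droplet genes in heart, and 6 higher endothelial markers in heart with 4 lower in brain. Of 161 calls of other named genes, 72 held under all 13 settings and 89 were lost under at least 1. Fabp6, with 5 to 30 counts per library, had the fewest reads behind its differences.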
